A study of Rattus norvegicus with 12 samples.

Results

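The collagen hydroxylases, the collagen chaperone and the lysyl oxidase crosslinkers were followed in rat calvaria, the flat bone of the skull roof, after bone had been cut with a laser or a bur. The set was 10 genes taken by name from the array (P4ha1, P4ha2, P4ha3, Plod1, Plod2, Serpinh1, Lox, Loxl1, Loxl2 and Loxl3). All 10 were on the array and measured, among 22718 genes measured in all. They were read by 14 probes, 4 of Lox, 2 of Serpinh1 and 1 of each other gene, and every one of these probes was well above background on all 12 arrays.

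All RNA came from bone of rats aged 10 weeks, taken 72 h after surgery, with 4 arrays in each of 3 groups and 1 sample on each array. In the laser group a defect of 8 by 3 mm had been ablated with an infrared Er:YAG laser, which vaporises mineralised tissue, at 20 Hz and an output of 127 mJ per pulse. In the bur group a defect of the same area had been drilled with a rotating bur. Control bone was not ablated; the treatment protocol says that its periosteum was taken off, while the series design calls it non-treated. The labels name neither strain nor sex, and no label says that the 4 samples of a group are 4 animals. The p-values therefore measure the spread among these samples alone, part of which may be technical.

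Collagen chains are modified in the endoplasmic reticulum before they fold. Prolyl 4-hydroxylases turn proline to hydroxyproline, which keeps the triple helix stable at body temperature, and lysyl hydroxylases turn lysine to hydroxylysine, which decides the kind of crosslink formed later. The chaperone HSP47 holds the folded helix on its way out of the cell, and outside it lysyl oxidases oxidise lysine and hydroxylysine side chains, which then crosslink neighbouring molecules into a firm fibril. Hydroxylases of both kinds need oxygen, iron and ascorbate, and lysyl oxidases carry copper. In bone this chemistry sets the strength of the type I collagen fibrils on which mineral is laid down.

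Signal is given on the log2 scale as processed spot intensity relative to the 75th percentile of its array, so that 0 is the level of that percentile and 1 unit is a doubling. Levels of different genes come from different probes and are not set against each other. That percentile lay between 674 and 1311 intensity units, and 58.1% to 67.0% of probes exceeded background on an array. No spot was saturated. The 4 control arrays shared a slide, and the 8 treated arrays shared the other slide, scanned separately, so slide, scan and treatment cannot be told apart in the comparisons with control. On the treated slide all bur arrays lay in column 1 and all laser arrays in column 2. Tool and column therefore cannot be told apart between laser and bur. Both of these comparisons use the same 4 control arrays, so their values are given side by side and are not independent.

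Osteoblast and osteocyte markers, the defining markers of the labelled tissue, were measured for 11 of 11 genes. Their mean log2 signal was -0.09 to 0.42 on control, 0.32 to 0.88 on bur and 0.77 to 1.36 on laser arrays. Markers of marrow moved with the groups. All 15 of 15 erythroid markers fell in both comparisons with control by limma, and their summed level ran from 83.2 to 389 on control arrays, 15.8 to 80.5 on bur and 25.0 to 83.3 on laser arrays, in multiples of the 75th percentile. A marrow score, the mean of the centred erythroid, neutrophil and B cell marker levels, was 1.35, 0.84, 0.11 and 2.15 in the order of the control replicates, and it lay between -1.28 and 0.16 for the 8 treated arrays. Of other lists, 7 of 11 osteoblast and osteocyte markers rose in laser bone and 1 in bur bone, 3 of 9 macrophage markers rose in laser bone and 5 in bur bone, and 6 of 8 adipocyte markers fell in both. The part of these cell types in the results was not tested. The fit with the marrow score given further on cannot test it, because that score itself nearly separates control from treated arrays.

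At 72 h most of the enzymes were higher in cut bone than in control bone, whichever tool had cut it. In laser bone 8 of the 10 genes rose and none fell (limma, Benjamini-Hochberg adjusted p under 0.05 over 22718 genes), where 9.26% of all genes rose and 13% fell. In bur bone 7 of 10 rose and none fell, where 9.99% of all genes rose and 16.2% fell. The median log2 difference of the 10 genes was 1.20 for laser minus control and 1.08 for bur minus control, beside medians of 0.02 and 0.00 over all genes. All 10 differences were above 0 in both comparisons. Laser and bur bone did not differ in any of the 10 by the same test. The counts against control depended on single arrays and on which groups entered the fit, as given further on.

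**Figure D1:**
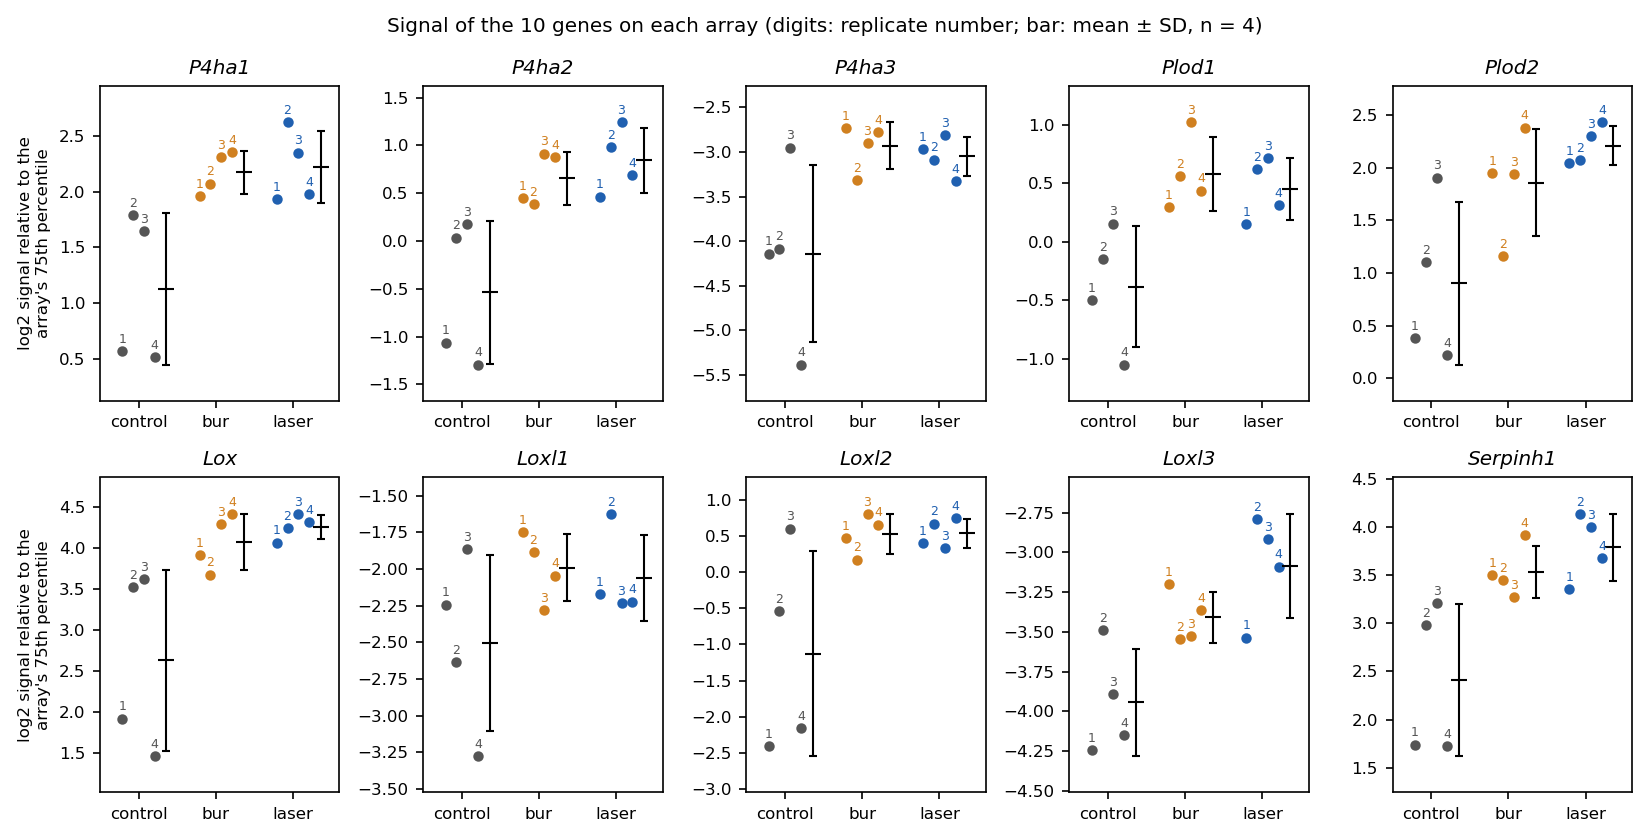
Log2 signal of each gene (vertical axis, relative to the array's 75th percentile, a scale of its own in each panel) on the 4 control, 4 bur and 4 laser arrays. Each point is an array with its replicate number, and the bar is the group mean ± SD. Control replicates 1 and 4 are the lowest of the 12 arrays for 9 of the 10 genes, all but Loxl1.

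The prolyl 4-hydroxylase alpha subunits carry the catalytic site and the peptide-binding domain of the enzyme. P4ha1, the main form in most tissues, is read by a probe placed at chrUn:15075009-15075068 of rn4, the build of the array's coordinates. Its signal was 0.56, 1.79, 1.64 and 0.51 on control replicates 1 to 4, 1.96, 2.07, 2.31 and 2.36 on bur and 1.93, 2.62, 2.35 and 1.98 on laser arrays. All 8 treated arrays were above all 4 controls, and the controls themselves spanned more than a unit. P4ha1 was 2.13-fold higher in laser bone (log2 difference 1.09, SE 0.30, limma adjusted p = 0.027) and 2.06-fold higher in bur bone (1.05, SE 0.30, limma adjusted p = 0.026).

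P4ha2, the form prominent in chondrocytes and osteoblasts, has its probe at chr10:39550587-39550646. Its signal was -1.06, 0.04, 0.18 and -1.29 on the controls, 0.45, 0.38, 0.91 and 0.88 on bur and 0.46, 0.98, 1.24 and 0.69 on laser arrays. Again neither treated group overlapped the controls. P4ha2 rose 2.60-fold in laser bone (1.38, SE 0.33, limma adjusted p = 0.019) and 2.28-fold in bur bone (1.19, SE 0.33, limma adjusted p = 0.023).

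P4ha3, the other alpha subunit, has its probe at chr1:157720654-157720713. Its signal was -4.14, -4.08, -2.95 and -5.38 on the controls, where control replicate 3 reached the treated range. It was -2.73, -3.31, -2.90 and -2.78 on bur and -2.97, -3.08, -2.81 and -3.33 on laser arrays. It passed the test in bur bone (1.21, SE 0.39, limma adjusted p = 0.041) and missed it in laser bone (1.09, SE 0.39, limma adjusted p = 0.063). With the shared replicate number as a block it passed in laser bone too, with a replicate block adjusted p of 0.04997, which brought the count there to 9 of 10. It also passed in laser bone with quantile normalization (1.13, limma adjusted p = 0.048), in the deposited log2 table (0.74, limma adjusted p = 0.043) and with array weights (1.04, limma adjusted p = 0.014). Its call in bur bone depended on the background correction: with normexp its difference was 0.37 in bur bone (limma adjusted p = 0.14) and 0.40 in laser bone (limma adjusted p = 0.18).

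Of the lysyl hydroxylases, Plod1 acts mainly on lysines of the helix and Plod2 on those of the telopeptides, the short ends at which bone-type crosslinks start. Plod1, with its probe at chr5:164987432-164987491, gave -0.50, -0.15, 0.16 and -1.05 on the controls, 0.30, 0.56, 1.02 and 0.44 on bur and 0.15, 0.62, 0.72 and 0.32 on laser arrays. The bur arrays were all above the controls, while laser replicate 1 lay just below control replicate 3. Plod1 rose 1.95-fold in bur bone (0.96, SE 0.26, limma adjusted p = 0.021) and 1.79-fold in laser bone (0.84, SE 0.26, limma adjusted p = 0.039).

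Plod2 has its probe at chr8:97622880-97622939. It gave 0.38, 1.101, 1.90 and 0.22 on the controls and 1.95, 1.16, 1.94 and 2.38 on bur arrays, and these groups overlapped. On laser arrays it was 2.04, 2.07, 2.30 and 2.43, all above the controls. Plod2 rose 2.48-fold in laser bone (1.31, SE 0.35, limma adjusted p = 0.027). In bur bone its difference was 0.95 (SE 0.35) and missed the threshold (limma adjusted p = 0.064), which it passed with normexp and with array weights (0.87 and 0.80, limma adjusted p = 0.046 and 0.037). The direct comparison of laser with bur gave 0.35 with a 95% interval of -0.42 to 1.13, so a difference between the tools is neither shown nor bounded closely. Within pairs of arrays with the same replicate number, Plod2 was higher on the laser array in 4 of 4 pairs, by 0.093, 0.91, 0.36 and 0.051 (exact sign-flip test, two-sided p = 0.125, the smallest that 4 pairs allow). Of all genes 9.3% were higher in all 4 pairs, and Plod2 was the 1 of the 10 that was. With the replicate block the difference had an SE of 0.35 and did not pass (limma adjusted p = 0.9997).

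Serpinh1 encodes HSP47, the chaperone that binds folded procollagen. Its brighter probe, at chr1:156667167-156667226, gave 1.74, 2.98, 3.21 and 1.73 on the controls. It gave 3.50, 3.45, 3.27 and 3.91 on bur and 3.35, 4.13, 3.995 and 3.68 on laser arrays, so that both treated groups lay above all controls, with bur replicate 3 close to control replicate 3. Serpinh1 rose 2.59-fold in laser bone (1.38, SE 0.34, limma adjusted p = 0.021) and 2.17-fold in bur bone (1.12, SE 0.34, limma adjusted p = 0.033). The other Serpinh1 probe differed from control by 1.38 in laser and 1.14 in bur bone (SE 0.35 each).

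The lysyl oxidase family had both the largest and the smallest differences of the set. Lox and Loxl1 belong to its shorter form, and Loxl2 and Loxl3 carry scavenger receptor domains before the same catalytic domain. Because paralogs can share reads or signal, the probes of the 4 enzymes are shown here as the array carries them, 5′ to 3′, with capitals on the longest run that each shares with another of the 4.

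Lox (chr18:47898302-47898361): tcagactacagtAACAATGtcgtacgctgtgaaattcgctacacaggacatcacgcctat
Loxl1 (chr8:62088318-62088377): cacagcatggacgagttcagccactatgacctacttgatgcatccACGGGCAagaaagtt
Loxl2 (chr15:50067990-50068049): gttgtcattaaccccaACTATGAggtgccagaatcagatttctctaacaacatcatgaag
Loxl3 (chr4:117261532-117261591): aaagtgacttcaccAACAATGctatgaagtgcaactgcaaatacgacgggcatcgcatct

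The longest run that any of these shared with another was 7 of 60 bases, and the same held for all 84 pairs of probes from different genes of the set. The Lox probe printed is 1 of 4. The brightest of the 4, at chr18:47896008-47896067, stood for the gene in the test.

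Lox, the founding crosslinking enzyme of collagen and elastin, gave 1.92, 3.52, 3.62 and 1.46 on control replicates 1 to 4. On bur arrays it was 3.91, 3.67, 4.29 and 4.42, and on laser arrays 4.06, 4.24, 4.41 and 4.31. Each treated array was above each control, by a small step over control replicates 2 and 3 and by a wide one over control replicates 1 and 4. Lox rose 3.09-fold in laser bone (1.63, SE 0.43, limma adjusted p = 0.025) and 2.72-fold in bur bone (1.44, SE 0.43, limma adjusted p = 0.031). Its 4 probes differed in brightness and gave like differences, 1.58 to 1.72 for laser and 1.40 to 1.46 for bur; all 4 passed in a fit of 29775 probes. Repeated spots of a probe agreed closely, with SDs of 0.0058 to 0.15 among the Lox spots of an array.

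**Figure D2:**
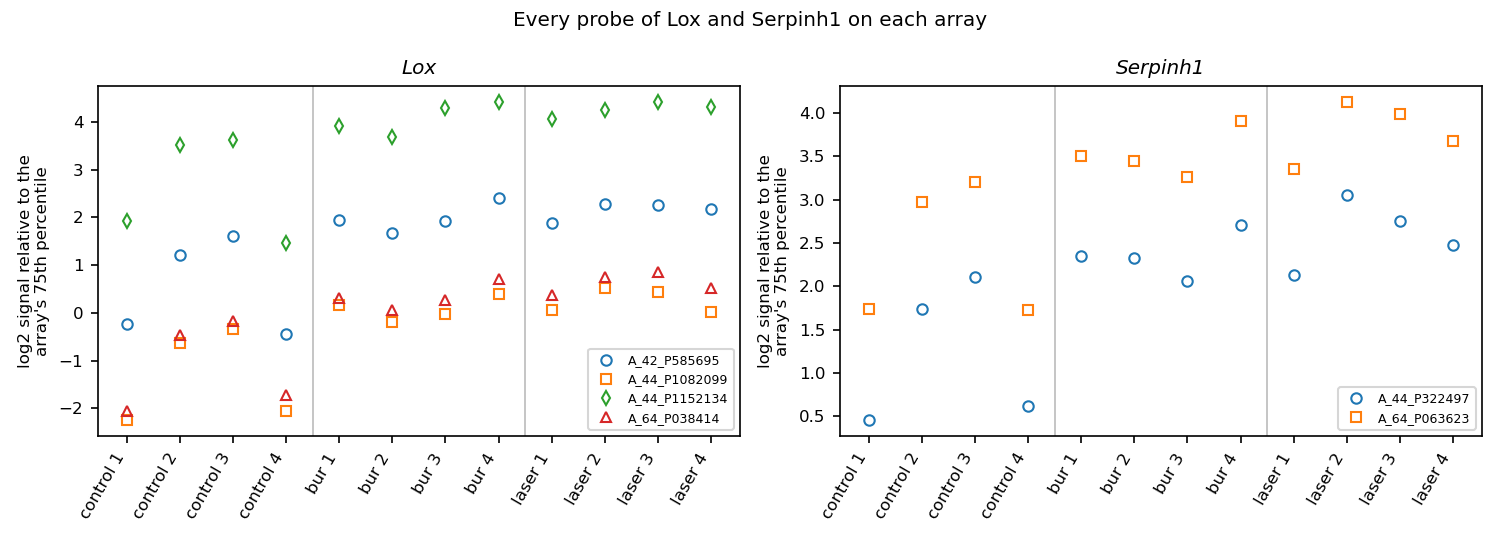
Log2 signal (vertical axis, relative to the array's 75th percentile) of the 4 Lox probes and the 2 Serpinh1 probes on each of the 12 arrays (horizontal axis). Each symbol is a probe; the probes of a gene run in parallel, and control replicates 1 and 4 are the low arrays for every one.

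Loxl2, which also acts on basement membrane collagen, gave the widest control spread, -2.41, -0.54, 0.60 and -2.16. Bur arrays gave 0.47, 0.17, 0.81 and 0.66, and laser arrays 0.40, 0.67, 0.33 and 0.74. Control replicate 3 was thus inside both treated ranges. Loxl2 rose 3.16-fold in laser bone (1.66, SE 0.53, limma adjusted p = 0.045) and 3.14-fold in bur bone (1.65, SE 0.53, limma adjusted p = 0.041). In leave-one-out fits the call held in 1 of 12 for laser and 2 of 12 for bur.

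Loxl3, linked to cartilage and palate development, gave -4.24, -3.49, -3.89 and -4.15 on the controls, -3.20, -3.55, -3.53 and -3.36 on bur and -3.54, -2.79, -2.91 and -3.09 on laser arrays. Control replicate 2 reached into both treated groups. It rose 1.82-fold in laser bone (0.86, SE 0.20, limma adjusted p = 0.019); in bur bone its difference was 0.54 (SE 0.20, limma adjusted p = 0.069). The bur difference passed with quantile normalization (0.60, limma adjusted p = 0.041) and in the deposited log2 table (0.44, limma adjusted p = 0.049). With the normexp background it was 0.11 (limma adjusted p = 0.52), and the laser difference was 0.45 (limma adjusted p = 0.038).

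Loxl1, the form that binds elastic fibres, passed in neither comparison. It gave -2.24, -2.64, -1.87 and -3.28 on the controls, -1.75, -1.89, -2.28 and -2.05 on bur and -2.17, -1.62, -2.23 and -2.22 on laser arrays, and all 3 groups overlapped. Its difference was 0.44 in laser bone (95% interval -0.15 to 1.04, limma adjusted p = 0.25) and 0.51 in bur bone (-0.08 to 1.11, limma adjusted p = 0.17). In bur bone it passed with array weights (0.58, limma adjusted p = 0.046) and in 1 of 12 leave-one-out fits.

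Whether members of a family changed by different amounts was tested within arrays, over 10 pairs of same-family genes in both comparisons, so 20 tests. The widest gaps were between Loxl1 and its relatives in laser bone, where Lox changed by 1.18 more and Loxl2 by 1.22 more (exact permutation p = 0.057 each, two-sided, adjusted p = 0.38). None of the 20 reached an unadjusted p under 0.05 (the smallest p that 4 against 4 arrays allow is 0.0286), so a smaller response of Loxl1 is not established here. Within pairs of the same replicate number in laser minus control, Loxl2 changed by more than Loxl1 in 4 of 4 pairs (exact sign-flip p = 0.125, the smallest that 4 pairs allow). P4ha2 likewise changed by more than P4ha1 in 4 of 4 (exact sign-flip p = 0.125), so Loxl1 is not singled out by this. Lox changed by more than Loxl1 in 3 of 4 (exact sign-flip p = 0.25).

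Counted by groups that do not overlap, P4ha1, P4ha2, Plod2, Lox and Serpinh1 were higher on every laser array than on every control, 5 of 10, where 8.87% of all genes were. For bur they were P4ha1, P4ha2, Plod1, Lox and Serpinh1, again 5 of 10, beside 9.6% of all genes.

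**Figure D3:**
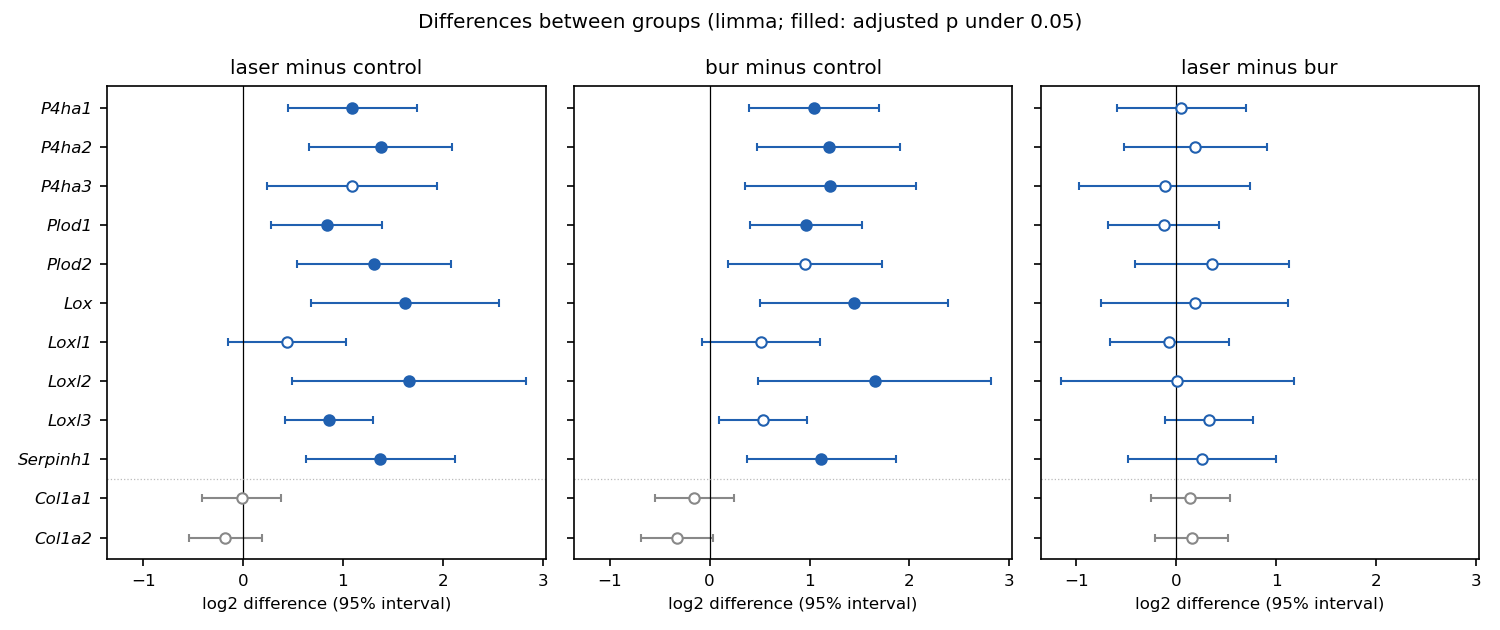
Log2 differences between groups (horizontal axis) with 95% intervals from limma for the 10 genes and, below the dotted line, the type I collagen chains Col1a1 and Col1a2. Filled points have an adjusted p under 0.05: 8 of 10 genes for laser minus control, 7 of 10 for bur minus control and none for laser minus bur.

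Between laser and bur, differences of the 10 genes ran from -0.13 (Plod1) to 0.35 (Plod2), 7 of them above 0. None passed, and none of the 22718 genes did (limma adjusted p = 0.9998 for each of the 10), with 574 genes and none of the 10 at an unadjusted p under 0.05. The groups overlapped for each of the 10, while they were apart for 2.15% of all genes. The intervals rest on 1 spread shared by all 3 groups, to which the uneven controls contribute. For Loxl3 the interval was -0.12 to 0.77, for P4ha1 -0.60 to 0.70 and for Serpinh1 -0.49 to 0.999. For Loxl2, the widest, it was -1.16 to 1.18. The SD of Loxl2 was 1.42 on control, 0.27 on bur and 0.20 on laser arrays, so this width reflects the controls more than the 2 groups compared. In a fit of only bur and laser arrays none of the 10 passed either (limma, none at an unadjusted p under 0.05, beside 834 of all genes). The authors' deposited tables also give no adjusted p under 0.05 for these genes between laser and bur. In the authors' deposited tables against control, P4ha3 passed in laser bone as well (log2 fold change 0.74, adjusted p = 0.029) and Loxl3 in bur bone (0.44, adjusted p = 0.045), while Plod2 in bur bone did not (0.80, adjusted p = 0.079).

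The controls were the least even group, with the largest SD of the 3 groups for all 10 genes, and the set varied with the marrow score across arrays. The fit takes 1 spread over the 3 groups, so the more even treated groups lower the SEs of the comparisons with control. With only the 2 groups compared in the fit, 0 of the 10 passed for laser and 2 for bur (limma). At an unadjusted p under 0.05 were 9 of the 10 in each, beside 7732 and 8611 of all 22718 genes. Of all genes 1758 and 4441 passed. After each gene was centred on its own 12-array mean, the 10 genes averaged -1.19, -0.33, 0.07 and -1.53 in control replicates 1 to 4, against 0.08 to 0.50 on bur and 0.19 to 0.60 on laser arrays. Control replicates 4 and 1, the lowest in the enzymes, had the highest marrow scores (2.15 and 1.35), and control replicate 3, the highest of the controls in the enzymes, had the lowest (0.11). Control replicate 1 also stood apart in skeletal muscle markers, of which 9 of 11 were measured. Their mean was -0.98 on that array against -4.69 to -4.27 on the other controls, -1.63 on bur replicate 1, -3.08 on laser replicate 1 and -4.81 to -4.33 on the other treated arrays. Their summed level ran from 0.66 to 7.84 on control, 0.55 to 5.55 on bur and 0.54 to 1.91 on laser arrays. The part of muscle in the results was not tested. In bulk bone, fewer cells of a type and less RNA per cell cannot be told apart. With the marrow score as a covariate none of the 10 passed in either comparison (limma, none at an unadjusted p under 0.05 either), and the median difference was 0.29 for laser and 0.14 for bur. In the same fits 2 and 0 of all 22718 genes passed, and 1804 and 2462 were at an unadjusted p under 0.05. The score nearly follows the groups, so the loss of calls is not particular to the 10 genes. Periosteal and granulation fibroblast markers, 9 of 9 measured, varied the same way: their mean was -1.11, -0.07, 0.61 and -1.55 on the controls and -0.04 to 0.80 on treated arrays, and their summed level 10.7 to 83.7 on control, 42.4 to 121 on bur and 58.8 to 108 on laser arrays. With that mean as a covariate the medians were 0.47 and 0.49, with none of the 10 passing (limma, 5 and 3 at an unadjusted p under 0.05). Of all 22718 genes 215 and 1053 passed, and 3783 and 5725 were at that unadjusted p. The bur count of 3, all rises, is thus near the share of all genes counted in both directions. This covariate was chosen after the data were seen and includes the matrix genes Col3a1 and Postn, so it cannot test the part of fibroblasts.

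**Figure D4:**
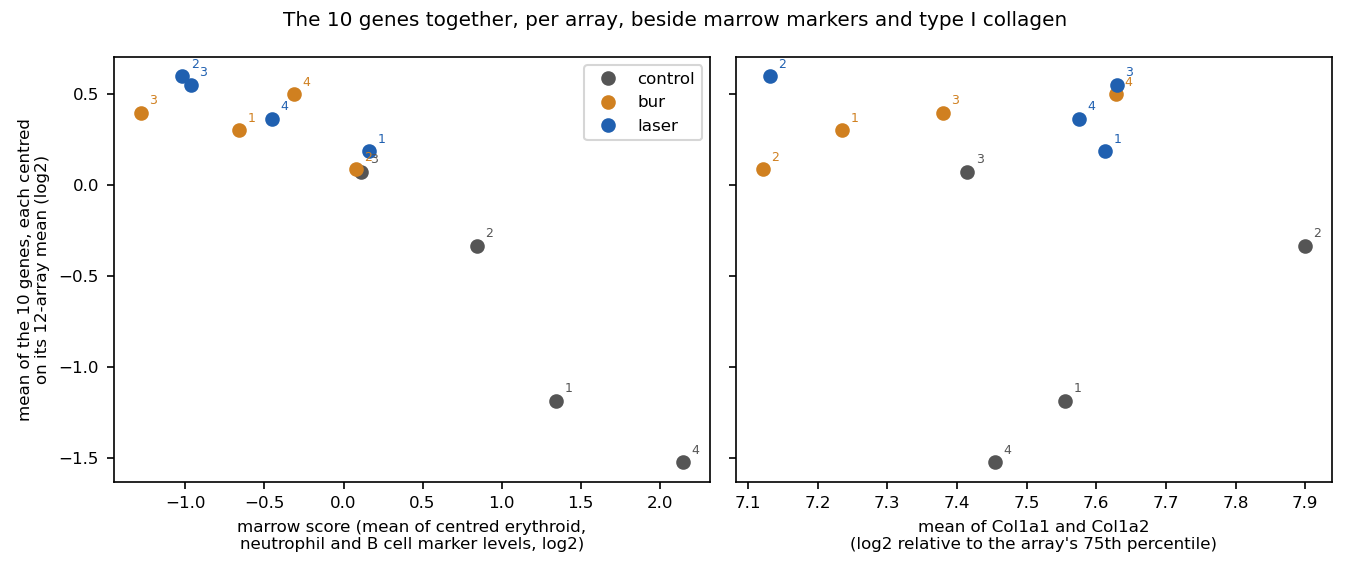
Mean log2 signal of the 10 genes per array, each gene centred on its 12-array mean (vertical axis), beside the marrow score (left) and the mean log2 signal of Col1a1 and Col1a2 (right). Each point is an array with its replicate number; control replicates 4 and 1 combine the lowest enzyme means (-1.53 and -1.19) with the highest marrow scores (2.15 and 1.35).

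Single arrays decided many of the calls. Without control replicates 1 and 4 together, which leaves 2 controls, all 10 differences remained above 0 in both comparisons. The medians were 0.56 for laser and 0.48 for bur, and none of the 10 passed (limma, 5 and 3 at an unadjusted p under 0.05). Of all 22718 genes 217 and 572 passed, and 4490 and 5463 were at that unadjusted p. The bur count of 3, all rises, is thus near the share of all genes counted in both directions. For laser minus control, the count of 8 was 0 without control replicate 1, laser replicate 2 or laser replicate 3. It was 2 without control replicate 4, 4 without laser replicate 4 and 9 without control replicate 3. In these fits 9 or 10 of the 10 were at an unadjusted p under 0.05, beside 7005 to 10466 of all 22718 genes. Of all genes 1245 to 7994 passed in them. For bur minus control, the count of 7 was 0 without control replicate 1 or bur replicate 3 and 1 without bur replicate 4 or control replicate 4. It was 3 without bur replicate 1 and 9 without control replicate 3. In these fits 7 to 10 of the 10 were at an unadjusted p under 0.05, beside 7622 to 10776 of all genes. Of all genes 2789 to 8397 passed in them. With array weights, which give less influence to arrays that fit their group poorly, 9 of 10 passed for laser, P4ha3 being the added gene. For bur 7 passed again, but not the same 7: P4ha1 (0.62, limma adjusted p = 0.072) and Lox (0.87, limma adjusted p = 0.059) no longer passed, and Plod2 and Loxl1 did. The direction did not depend on any single array: all 10 differences stayed above 0 in each leave-one-out fit.

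The chains of type I collagen, the main substrate of these enzymes in bone, are Col1a1 and Col1a2, and neither passed the test in either comparison (they are named after their values were seen). Col1a1 gave 7.69, 8.23, 7.52 and 7.73 on the controls, 7.44 to 7.95 on bur and 7.46 to 7.91 on laser arrays. Its difference was -0.01 in laser bone (95% interval -0.41 to 0.39, limma adjusted p = 0.97) and -0.15 in bur bone (-0.55 to 0.24, limma adjusted p = 0.55). For Col1a2 it was -0.18 (-0.54 to 0.19, limma adjusted p = 0.45) and -0.33 (-0.69 to 0.03, limma adjusted p = 0.16). Both chains were bright on every array, Col1a1 at 7.44 to 8.23. No spot was saturated, but whether signals this bright were compressed, which would bear on their use as a reference, was not tested. Set against the mean of both chains within each array, a test added after the values were seen, the enzymes were higher by a median of 1.29 in laser and 1.32 in bur bone, beside medians of 0.11 and 0.24 over all other genes on that scale. The mean of both chains itself differed from control by -0.094 in laser and -0.24 in bur bone, which raises every gene by as much on that scale. Treated and control arrays were fully apart for 4 of 10 genes in laser bone (P4ha1, P4ha2, Lox and Loxl3) and 6 of 10 in bur bone (those 4, Plod1 and Serpinh1), where 5.7% and 12.6% of all genes lay above the controls in this way. Each was at the smallest exact permutation p of 0.0286. After adjustment over the 20 tests none was under 0.05 (lowest adjusted exact permutation p = 0.057).

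Other genes of the pathway were described from lists, whose counts stand beside 9.26% of all genes rising and 13% falling in laser bone, and 9.99% and 16.2% in bur bone. A gene named for 1 tool alone is not thereby a difference between the tools, since none of the 61 listed genes passed between laser and bur. Of 14 further collagen modification genes, 10 rose and none fell in laser bone (median 1.04), and 5 rose and none fell in bur bone (median 0.72). Fkbp10, a chaperone and helper of telopeptide lysyl hydroxylation, rose by 1.36 in laser bone (SE 0.38, limma adjusted p = 0.030) and was at 0.91 in bur bone (limma adjusted p = 0.096). P3h1 and P3h3, prolyl 3-hydroxylases, rose by 1.11 (SE 0.30) and 1.09 (SE 0.26) in laser bone, and P3h3 also in bur bone by 0.98 (SE 0.26). Fkbp14 rose by 1.16 (SE 0.38) in laser bone. Plod3, the lysyl hydroxylase that also glycosylates, rose by 0.998 (SE 0.17, limma adjusted p = 0.0062) in laser and 0.78 (SE 0.17, limma adjusted p = 0.011) in bur bone. P4hb, the partner subunit that completes prolyl 4-hydroxylase with each alpha subunit, rose by 0.67 in bur bone (SE 0.17) and by 0.68 in laser bone. Ppib, the cyclophilin of the prolyl 3-hydroxylase complex, rose by 0.78 in bur bone (SE 0.20). Its mean was 2.62 on bur and 2.70 on laser arrays, against 1.84 on control.

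Of 11 measured genes of procollagen export and propeptide removal, 6 rose and 1 fell in laser bone, and 2 rose and 1 fell in bur bone, beside the 9.99% and 16.2% of all genes. Sec24d, a coat protein of the vesicles that carry procollagen, rose by 1.29 in laser and 1.12 in bur bone (SE 0.23 each, limma adjusted p = 0.0086 and 0.0091). In laser bone Creb3l1, a transcription factor of secretory osteoblasts, rose by 1.102 (SE 0.31) and Bmp1, the C-propeptidase that also activates Lox, by 1.05 (SE 0.34). Adamts14, an N-propeptidase, rose by 1.003 in laser bone (SE 0.32), and Sec13 by 0.76 in bur bone (SE 0.24). The mean of Sec13 was 1.03 on bur and 0.98 on laser arrays, against 0.27 on control. Tll1, a relative of Bmp1, was the one that fell, by 0.94 in laser and 1.14 in bur bone (SE 0.16 each, limma adjusted p = 0.0058 and 0.0021).

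Among 10 fibril-forming collagen chains and elastin, 3 rose in laser bone and 1 in bur bone, none fell, and the medians were 0.89 and 0.35. The 1 of 10 in bur bone is no more than the share of all genes. Col5a3, a minor chain that starts fibrils, rose in both (1.48 and 1.44, SE 0.39 each, limma adjusted p = 0.026 and 0.023). Col11a1 and Col11a2 rose in laser bone by 1.35 (SE 0.35) and 0.94 (SE 0.31). Of 12 fibril partner genes, 3 rose in laser bone (Lum at 1.35, SE 0.39, Fbn1 at 1.04, SE 0.34, and the transglutaminase Tgm2 at 0.98, SE 0.28), and 4 in bur bone (Lum at 1.49, Fbn1 at 1.35, Tgm2 at 0.96 and the fibronectin gene Fn1 at 0.78). None of these 12 fell. Fn1 was 3.58, 3.72, 3.51 and 3.85 on laser replicates 1 to 4, beside 3.44, 3.49, 4.28 and 3.56 on bur replicates.

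The 14 oxygen response genes were listed because the hydroxylases use oxygen and several of their genes are known targets of hypoxia-inducible factors. Of these, 4 rose and 1 fell in each comparison, with medians of 0.73 and 0.74. The glucose transporter gene Slc2a1 rose by 2.10 in laser and 2.22 in bur bone (SE 0.60 each, limma adjusted p = 0.032 and 0.022). Ndrg1 rose by 1.37 and 1.66 (SE 0.43 each) and Ankrd37 by 1.19 and 1.24 (SE 0.34 each). Bnip3 rose by 1.40 in bur bone (SE 0.45). On laser replicates 1 to 4 Bnip3 was 0.83, 1.27, 1.74 and 1.12, against 0.16, 0.32, 0.52 and -0.96 on the controls. Vegfa, which makes the angiogenic growth factor, also passed in laser bone (1.13, SE 0.32). For each of these genes bur replicate 3 was the highest bur array. Bnip3 was 0.82, 0.85, 2.83 and 1.13 on bur replicates 1 to 4, Slc2a1 0.38, 0.96, 2.50 and 0.49, and Ankrd37 -1.22, -1.48, 0.05 and -1.27. Car9, a carbonic anhydrase gene often used as a hypoxia marker, fell in bur bone by 0.56 and in laser bone by 0.67 (SE 0.17 each); it is named after its values were seen. With the replicate block 8 of the 14 rose and 1 fell in laser bone, where 5771 of all 22718 genes passed in either direction, against 5061 without the block. Of the 61 listed genes together, 26 rose in laser bone and 16 in bur bone. None rose with the marrow score as a covariate (limma, 3 and 0 higher at an unadjusted p under 0.05), with the fibroblast marker mean as a covariate (7 and 14) or without control replicates 1 and 4 (13 and 14). Lower at that p were 1 and 2, 2 and 4, and 2 and 3 of the 61. In either direction it held for 1804 and 2462, 3783 and 5725, and 4490 and 5463 of all 22718 genes. The counts of the 61 are thus near or below the share of all genes. In leave-one-out fits the counts of genes passing ran from 1 to 12 of 14 (laser) and 1 to 10 of 14 (bur) for collagen modification, 2 to 9 and 2 to 5 of 11 for export, 0 to 6 and 0 to 3 of 10 for the chains, 0 to 7 and 0 to 6 of 12 for fibril partners, and 0 to 6 of 14 in both for the oxygen response.

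**Figure D5:**
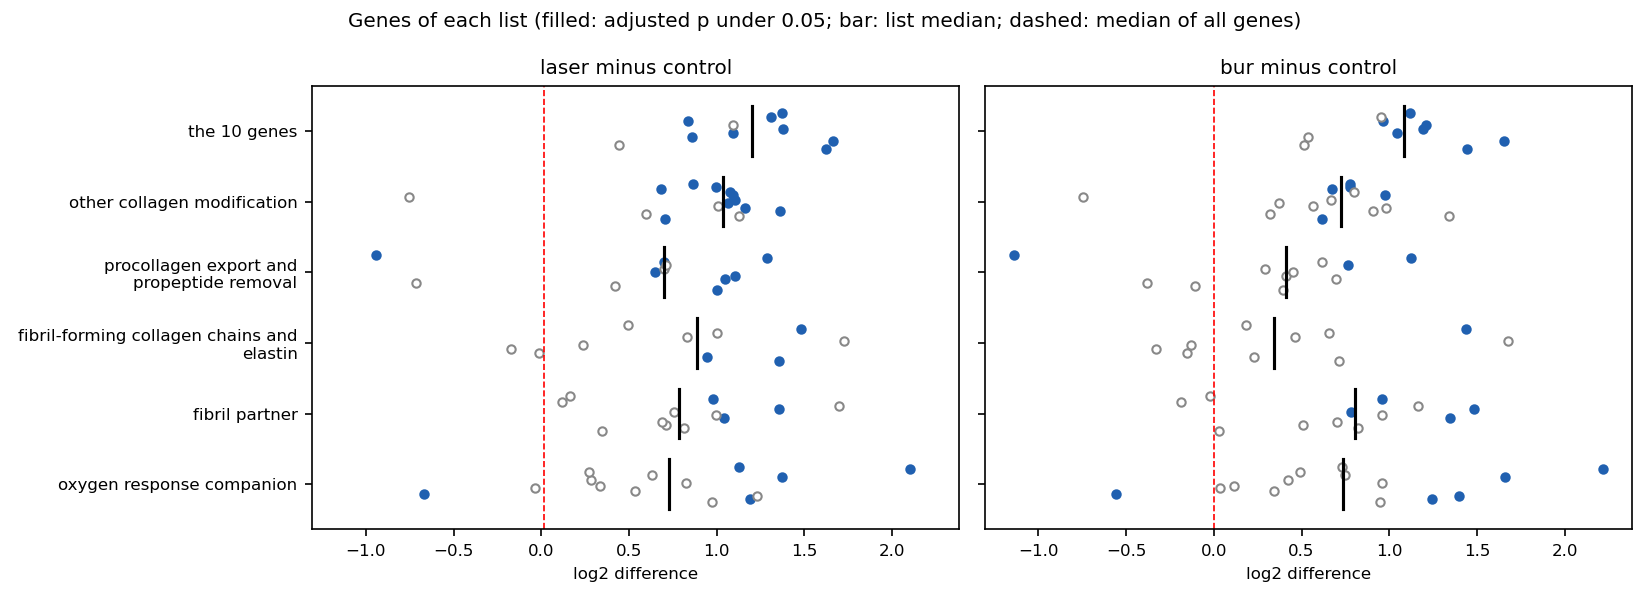
Log2 difference of every measured gene (points) in the set and in 5 lists of related genes, for laser minus control (left) and bur minus control (right). Filled points have a limma adjusted p under 0.05, the bar is the list's median and the dashed line is the median of all genes; the set has the highest median in both panels (1.20 and 1.08).

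Promoter sequence was looked at for a word that these genes might share. The core word of hypoxia response elements is ACGTG or GCGTG, which was searched on both strands in windows from 250 bases before to 50 after the annotated start, taken from RefSeq promoters of build GRCr8. Windows were found for 8 of the 10 genes, and Lox and Loxl2 were not matched. The word was in 5 of 8 windows, beside 41.6% of 33469 windows of 300 bases in the table. It was also in 11 of 13 windows of the collagen modification list, 8 of 10 of export and 8 of 13 of the oxygen response. For fibril partners it was in 3 of 7 and for the fibril-forming chains and elastin in 1 of 6. The word is therefore not particular to the set. It occurred 5 times in P4ha2, 4 times in Plod2, 3 times in P4ha1 and once each in Plod1 and Loxl3, and in none of the windows of P4ha3, Loxl1 and Serpinh1. The 8 windows are 60.7% to 73.7% C and G. CACGTG, an overlapping word that holds ACGTG on each strand, was in none of the 8 and in 6.42% of all windows. The 3 windows with the most matches follow, 5′ to 3′ on the gene's strand, with matches on either strand in capitals (CACGT and CACGC are the same words on the other strand).

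P4ha1 (chr20:27844796-27845095, GRCr8, + strand): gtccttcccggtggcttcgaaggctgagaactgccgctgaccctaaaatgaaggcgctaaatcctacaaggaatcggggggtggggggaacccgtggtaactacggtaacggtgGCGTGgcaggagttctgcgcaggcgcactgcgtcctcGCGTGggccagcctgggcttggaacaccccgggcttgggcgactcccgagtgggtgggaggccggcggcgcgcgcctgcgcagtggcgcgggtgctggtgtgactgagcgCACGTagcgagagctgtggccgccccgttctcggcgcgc
P4ha2 (chr10:38743644-38743943, GRCr8, + strand): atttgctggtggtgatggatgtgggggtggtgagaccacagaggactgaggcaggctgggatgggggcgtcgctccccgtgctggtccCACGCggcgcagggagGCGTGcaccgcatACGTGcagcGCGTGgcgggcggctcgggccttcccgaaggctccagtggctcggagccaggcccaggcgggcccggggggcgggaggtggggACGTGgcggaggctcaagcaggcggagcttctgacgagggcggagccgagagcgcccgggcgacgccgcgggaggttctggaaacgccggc
Plod2 (chr8:101964068-101964367, GRCr8, + strand): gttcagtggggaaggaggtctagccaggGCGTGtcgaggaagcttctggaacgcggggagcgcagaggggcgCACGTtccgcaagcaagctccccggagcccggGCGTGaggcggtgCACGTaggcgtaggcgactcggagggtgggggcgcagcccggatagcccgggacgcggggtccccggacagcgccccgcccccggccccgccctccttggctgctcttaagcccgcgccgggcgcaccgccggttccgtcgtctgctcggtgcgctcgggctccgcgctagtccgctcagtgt

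In P4ha2 all 5 matches lay before the start, between 162 and 41 bases upstream. In Plod2 all 4 lay between 222 and 133 bases upstream, and in P4ha1 2 lay 136 and 99 bases upstream and 1 lay 11 bases past the start. P4ha1, P4ha2 and Plod2 each rose in laser bone, as did Serpinh1, whose window has no match. A match is a description of the letters and was not tested for binding.

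By likeness of profile over the 12 arrays, the measure being the root mean square distance between centred log2 values among 14429 gene symbols, the gene nearest to Lox was Lrrc15 (0.18), followed by Prrx1 (0.20) and Trim36 (0.22). Lrrc15 was also nearest to Loxl2 (0.22), followed by Vof16 (0.29) and Gli3 (0.31). Nearest to P4ha2 were P4ha1 (0.19), Papss2 (0.19) and Serpinh1 (0.20), so that 2 of its 3 nearest genes belonged to the set. These distances describe the same 12 arrays, in which the control split weighs on every profile.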

How the data were processed

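Total RNA from 12 samples was labelled with 1 dye (Cy3) and hybridised to 1 array each. The authors deposited the scanner output as spot intensity on a linear scale, made with Agilent Feature Extraction 11.0.1.1 per the file headers and the submitters' processing notes, and background-subtracted within the array per the file headers. Log2 values called quantile-normalized, used here as an alternative, and the p-values and log2 fold changes of 3 comparisons were deposited too; how they were made was not given in the sources used here. Gene names and rn4 coordinates are those of the array.

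From the 58717 non-control spots of each array, log2 processed intensity minus the log2 75th percentile was taken, outlier-flagged spots were left out and spots of a probe averaged. Probes well above background on at least 4 of 12 arrays were kept, and the brightest kept probe stood for a gene. Groups were compared with limma 3.58.1 in R 4.3.3 (lmFit and eBayes, 1 mean per group over all 12 arrays, two-sided), adjusted over 22718 genes with a threshold of 0.05. Since 3 groups of 4 arrays were compared, their number limits the precision. Differences between genes within an array were tested with an exact permutation test, and within numbered pairs with an exact sign-flip test added after the data were seen, and promoters were searched in Python 3.11.15 with pandas. The alternatives were background correction, normalization, the deposited log2 table, filters, probe rule, samples in the fit, replicate block, array weights, marker covariates and leaving out arrays.

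All 10 genes are described with every probe. From each list up to 4 passing genes with the largest difference in each comparison are named, and for the 3 genes with the largest difference the 3 nearest profiles. The genes and lists were chosen with earlier results of these data known.

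Replicate numbers were checked for pairing by correlating the deviations from the group mean of arrays with the same number. The correlation was 0.34, 0.18, 0.22 and 0.13 between control and laser and 0.25, 0.24, 0.16 and 0.34 between bur and laser, all above 0.1, and 0.28, -0.05, 0.28 and 0.08 between bur and control. Taking a pairing where every correlation exceeds 0.1, the numbers, which the titles give, would pair laser with control and with bur. Some arrays with different numbers also exceeded 0.1, up to 0.12 (control 3 with laser 2) and 0.14 (bur 4 with laser 3). The lowest values for the same number, 0.13 and 0.16, lay only just above these, so the cut-off separates them narrowly. The numbers are those of the titles. These numbers equal the slide row on all 12 arrays, so samples that belong together and arrays in the same row cannot be told apart.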

Additional observations from a re-analysis of the deposited data

Results flagged for a closer look

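Among the 30 combinations of gene and group checked for a lone array, 1 stood apart. Loxl1 on laser replicate 2 was at -1.62 on the log2 scale, against -2.17, -2.23 and -2.22 on laser replicates 1, 3 and 4, a gap beyond Dixon's 95% critical value for 4 samples. Chance gives about 1 such case in 20 groups. Without this array the Loxl1 difference between laser and control was 0.30 and missed the threshold (limma adjusted p = 0.48).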

How the results depend on the processing

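All settings used limma, and the settings without control replicates 1 and 4 together and with the fibroblast marker mean were chosen after seeing the data. For laser minus control, 5061 genes and 8 of the 10 passed. The numbers were 3172 genes without a filter on dim probes, 1758 and 0 with only the compared groups, 2 and 0 with the marrow score as covariate, 217 and 0 without control replicates 1 and 4, 215 and 0 with the fibroblast mean, and 1245 to 7994 and 0 to 9 in leave-one-out fits. For bur minus control, 5948 genes and 7 passed. The numbers were 2 of the 10 with only the compared groups, 0 and 0 with the marrow score, 572 and 0 without control replicates 1 and 4, 1053 and 0 with the fibroblast mean, and 2789 to 8397 and 0 to 9 in leave-one-out fits. For laser minus bur, 0 genes passed (574 at an unadjusted p under 0.05), 1 without the filter and 0 in each leave-one-out fit. The cause was not tested.

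Normexp moved the median of all genes by over 0.1 in the comparisons with bur, to -0.24 for bur minus control and 0.13 for laser minus bur, and lack of a filter moved it to -0.14 for bur minus control. Normexp gave 1647 genes higher and 6286 lower in bur bone against 2270 and 3678. All 10 differences against control stayed above 0 under each setting except the marrow score, with which P4ha3 was at -0.053, Plod1 at -0.015 and Loxl1 at -0.10 (laser) and Loxl1 at -0.023 (bur). Signs of laser minus bur, which are within error, turned for P4ha3 (0.033) and Loxl1 (0.022) with normexp, for Loxl2 with the percentile of detected probes (-0.0057), the marrow score (-0.015) and the fibroblast mean (-0.17), and for P4ha1 with the fibroblast mean (-0.039). In leave-one-out fits laser minus bur ran from -0.085 to 0.15 for P4ha1, -0.22 to 0.0082 for Loxl1, -0.11 to 0.10 for Loxl2 and -0.22 to 0.020 for Plod1.

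With the replicate block 9 of 10 passed for laser and 7 for bur (5771 and 6578 genes). It changed the call of P4ha3 in laser bone and of no other of the 10. Slide and column could not be fitted beside the groups and were not run. All 14 probes of the 10 were well above background on all 12 arrays.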
